A study of Mus musculus with 6 samples.

Results

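Nuclear genes for subunits of respiratory complexes II, III, IV and V were examined in newborn mouse hearts with and without a cardiac knockout of Kdm5b. Rows of the gene table were taken where the biotype was protein-coding and the symbol was Sdha to Sdhd, began with Uqcr, was Cyc1 or Cycs, began with Cox4 to Cox8, or began with Atp5. This gave 51 of 56748 rows, and 48 of the 51 reached the mean level of at least 1 FPKM needed for testing. The rule used the biotype and the symbol and no measured value, but it was chosen with earlier results of these data known. Of the tested genes 4 belong to complex II, 10 to complex III with cytochrome c, 17 to complex IV and 17 to complex V.

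RNA of whole hearts at postnatal day 1 was sequenced in 6 libraries. The 3 cKO hearts carry a cardiac knockout of Kdm5b, a demethylase of lysine 4 of histone H3, with the genotype given as kdm5b Cko. The 3 FF hearts are labelled Flox with the genotype FF and are the controls, and the design text calls them Kdm5b FF. No source used here gives the promoter that drives Cre, the strain or the sex, or says whether each library came from a separate animal, so p-values measure the spread between these libraries. The study's title concerns histone modulators and the cell cycle in cardiomyocytes, and respiratory subunits are followed here as another gene group of the same hearts.

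Complex II takes electrons from succinate to ubiquinone, complex III passes them on to cytochrome c, complex IV passes them to oxygen, and complex V, the ATP synthase, makes ATP from the proton gradient. Complexes III, IV and V are assembled from subunits of both the nuclear and the mitochondrial genome, whereas all subunits of complex II are nuclear. Some subunits of complex IV have a form typical of heart and skeletal muscle (Cox6a2, Cox7a1, Cox8b) and a form found in most tissues (Cox6a1, Cox7a2, Cox8a), and the heart moves to oxidative metabolism of fatty acids around birth.

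Promoters of 4 genes, picked for differences in either direction, are shown. A link between their letters and the direction was not tested. Cox8b and Cox8a encode the muscle form and the widespread form of the same subunit. Uqcr11 is a small subunit of complex III with a lower mean in cKO hearts that did not pass the test. Sdha had the highest difference in complex II and did not pass the test either. Each is the 250 bases upstream of the RefSeq start, in the direction of the gene, on GRCm38.p6. Capitals mark matches to the searched letters, which are an E-box (CANNTG) in Cox8b and Cox8a, the GABPA letters CCGGAAG in Uqcr11, and the NRF1 letters (GCGC, any base, then TGCGC), read on the opposite strand, in Sdha.
Cox8b, chr7:140900447-140900696, minus strand: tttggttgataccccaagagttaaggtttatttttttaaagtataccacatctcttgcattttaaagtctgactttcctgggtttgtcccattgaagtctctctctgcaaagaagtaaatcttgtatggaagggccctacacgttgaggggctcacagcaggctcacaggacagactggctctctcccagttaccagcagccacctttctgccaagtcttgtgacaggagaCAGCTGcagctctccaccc
Cox8a, chr19:7217617-7217866, minus strand: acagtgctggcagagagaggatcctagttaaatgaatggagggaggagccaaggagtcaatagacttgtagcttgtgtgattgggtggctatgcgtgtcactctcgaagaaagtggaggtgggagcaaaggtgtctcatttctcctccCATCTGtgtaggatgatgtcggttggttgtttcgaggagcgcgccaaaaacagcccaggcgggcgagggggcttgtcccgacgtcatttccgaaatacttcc
Uqcr11, chr10:80406822-80407071, minus strand: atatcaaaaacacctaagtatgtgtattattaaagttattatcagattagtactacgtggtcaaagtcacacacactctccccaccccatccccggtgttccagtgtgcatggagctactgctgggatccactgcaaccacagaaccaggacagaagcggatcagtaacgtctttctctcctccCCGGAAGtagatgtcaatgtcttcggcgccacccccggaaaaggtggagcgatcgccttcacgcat
Sdha, chr13:74350241-74350490, minus strand: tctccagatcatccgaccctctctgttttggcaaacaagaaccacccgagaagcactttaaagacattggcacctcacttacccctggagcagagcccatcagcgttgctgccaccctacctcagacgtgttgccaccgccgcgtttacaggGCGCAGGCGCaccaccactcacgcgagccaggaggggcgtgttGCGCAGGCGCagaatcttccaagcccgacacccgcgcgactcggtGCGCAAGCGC

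NRF1 and GABPA are transcription factors known for binding promoters of respiratory genes. RefSeq promoters were at hand for 37 of the 51 genes and for 27025 genes in all, and both strands were searched. A gene counted where any of its promoters held a match. The NRF1 letters occurred for 7 of the 37 genes (18.9%), against 4.23% of all 27025, and the GABPA letters for 9 (24.3%), against 7.83%. An E-box occurred in 23 (62.2%), against 69.3% of all. The letters AAGGTCA of oestrogen-related receptors occurred in 2 (5.41%), against 4.70%, and the MEF2 motif in 0, against 0.592%. The printed windows hold these matches 19 bases before the start in Cox8b, 102 in Cox8a, 66 in Uqcr11, and 98, 55 and 10 in Sdha. A match describes the letters only, and no binding was measured.

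The libraries held 15658893 to 20339926 reads, which were recovered from the deposited FPKM and gene lengths. FF replicate 3 stood apart, with a correlation of 0.880 to 0.909 to the other libraries across genes, against 0.954 to 0.984 among the others. Thymocyte markers summed to 1.38 to 2.34 FPKM in cKO hearts and to 2.24, 1.70 and 346 FPKM in FF hearts, the last in replicate 3. That library lay below the mean of FF replicates 1 and 2 in 37 of the 48 subunit genes and above it in 11, so the main results are given with and without it. Kdm5b itself was at 2.80, 3.03 and 2.75 FPKM in cKO hearts and 3.19, 3.25 and 3.92 FPKM in FF hearts, a difference of -0.20 on the log2(FPKM + 1) scale, or -0.13 without FF replicate 3, with adjusted p of 0.447 and 0.391 (limma, over all genes tested), and the deleted exons are not named in the sources used here. The tissue label was met by heart muscle genes, with 14 of 14 listed cardiomyocyte markers tested and a summed level of 17589 to 20010.0 FPKM in cKO and 16898 to 18783 FPKM in FF hearts. Single markers differed, and Myh7, the slow myosin heavy chain, rose to a mean of 673 FPKM in cKO hearts, against 99.3 FPKM in FF hearts (2.76, adjusted p of 0.0168 in limma). Myl2 and Myl3, ventricular myosin light chains, had differences of -0.57 and -0.39 and did not pass the test. Over the 14 cardiomyocyte markers the median difference was 0.14, with 6 below 0.

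Most subunit genes had a lower mean in cKO than in FF hearts, but no single subunit passed the test with all 6 libraries. The median difference with all 6 libraries was no longer below 0 once the trend with coding length was removed. The 48 tested genes had a median difference of -0.22 in log2(FPKM + 1), cKO minus FF, with 40 below 0, beside a median of 0.01 over the 12678 genes tested. With coding length corrected the median was 0.010, and -0.09 when FF replicate 3 was also left out. None of the 48 was past an adjusted p of 0.05 (limma, Benjamini-Hochberg over all genes tested), where 0.166% of all genes tested were (0.0947% lower and 0.071% higher). At an unadjusted p under 0.05, 7 subunits (14.6%) were lower and 0 higher in cKO, against 9.55% and 8.39% of all genes tested, and limma voom on the recovered reads called 0 as well.

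Without FF replicate 3 the median difference was -0.39, beside -0.01 over all genes tested, and 8 of the 48 (16.7%) fell in cKO while 0 rose. Of all genes tested 12% were past the threshold in that comparison, 6.26% lower and 5.73% higher. The 8 were Atp5g1, Cox6b2, Uqcrq, Cox4i1, Uqcrb, Cox8b, Atp5j and Cox5b. Of other coding genes of up to 300 bases, 26.6% were past the threshold and lower, against 11.1% of the subunits of that length. Between 300 and 600 bases these shares were 15.2% and 31.6%. At an unadjusted p under 0.05, 25 subunits (52.1%) were lower and 0 higher, against 17.5% and 15.9% of all genes tested. The values of all cKO libraries lay below those of FF replicates 1 and 2 for 33 subunits (68.8%), against 27% of all genes tested, and above them for 3 (6.25%), against 25%. With all 6 libraries these counts were 10 lower (20.8%), against 14.5%, and 3 higher (6.25%), against 13.5%. The 3 higher ones with 6 libraries were Sdha, Atp5b and Cox8a.

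**Figure D1:**
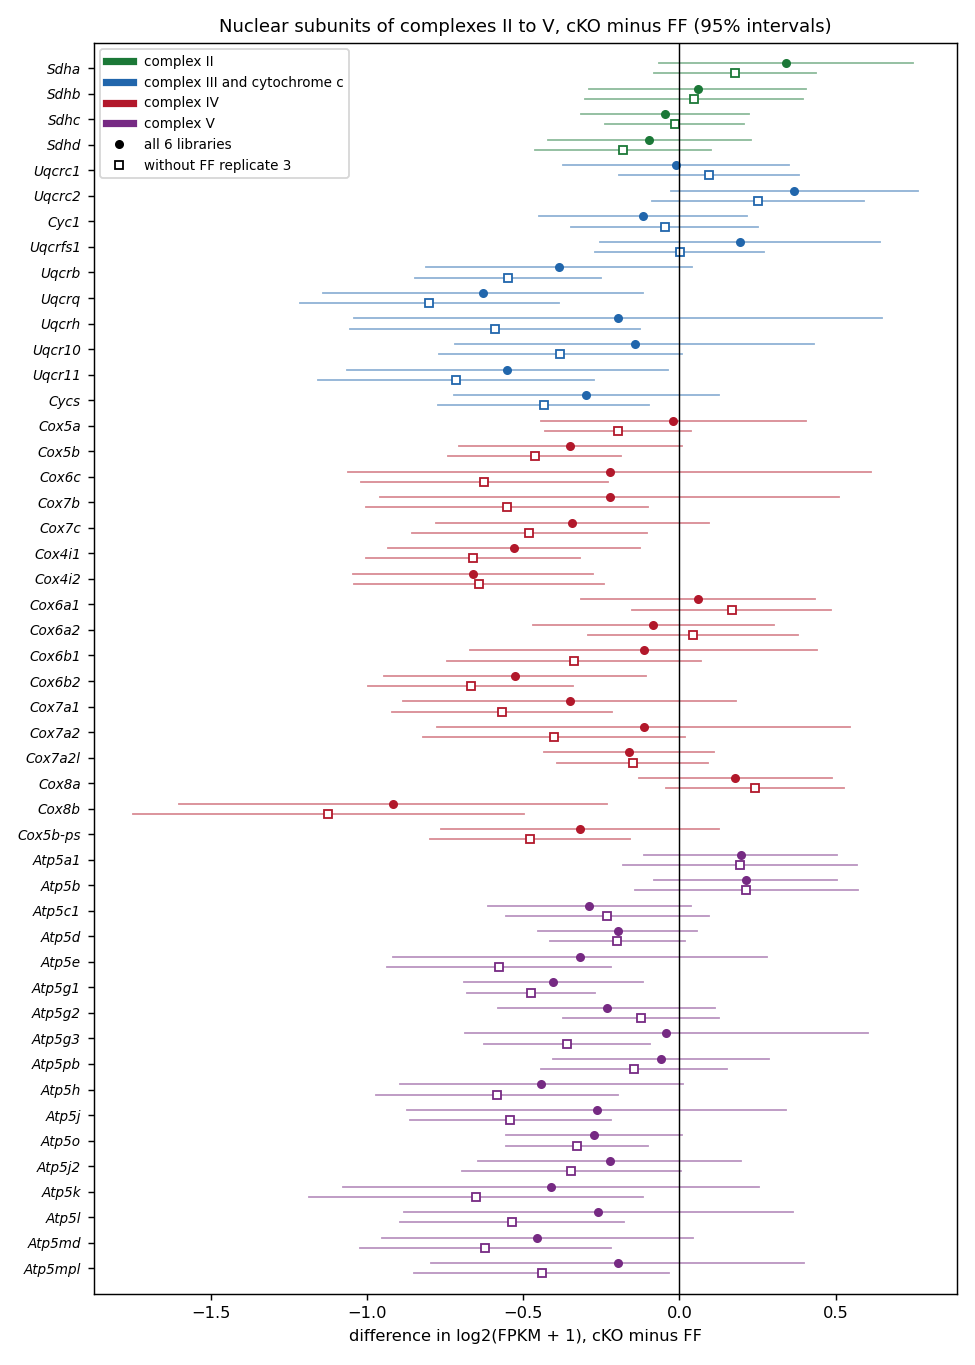
Difference in log2(FPKM + 1), cKO minus FF, for each of the 48 tested subunit genes, with 95% intervals from limma, for all 6 libraries (filled circles) and without FF replicate 3 (open squares); colours mark the complexes. The medians were -0.22 and -0.39, Cox8b lay lowest at -0.92 and -1.12, and of the 5 longest subunits Sdha, Uqcrc2, Atp5a1 and Atp5b lay above 0 and Uqcrc1 at -0.01; with coding length corrected the median over 6 libraries was 0.010.

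The 4 subunits of complex II, which has no mitochondrially encoded subunit, had a median difference of 0.01 with 6 libraries and 0.02 without FF replicate 3. None passed the test, and the difference from the other complexes was not tested. Sdha encodes the flavoprotein that oxidises succinate. It was at 257, 278 and 249.6 FPKM in cKO hearts and at 242, 219.8 and 164 FPKM in FF hearts. All cKO values lay above all FF values, and the difference was 0.34 ± 0.17 (SE), with an adjusted p of 0.361 (limma). Without FF replicate 3, the lowest of the 6, it was 0.18 ± 0.11 with an adjusted p of 0.291. Sdhb, the iron-sulphur subunit, averaged 159.6 ± 23.1 FPKM in cKO and 152 ± 7.74 FPKM in FF hearts (SD, n = 3 each). The membrane anchors were as close, with Sdhc at 100.2 ± 4.33 and 104 ± 5.58 FPKM. Sdhd was at 308, 308 and 283 FPKM in cKO hearts and at 365, 315 and 285 FPKM in FF hearts, so the groups overlapped, and the difference was -0.10 ± 0.14 with an adjusted p of 0.757. When FF replicate 3 was left out every cKO value was below the remaining FF values, and the difference was -0.18 ± 0.12 with an adjusted p of 0.322. The summed level of complex II was 821 ± 52.0 FPKM in cKO and 786 ± 84.0 FPKM in FF hearts (SD, n = 3 each).

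The tested subunits of complex III and cytochrome c had a median difference of -0.17 with 6 libraries and -0.41 without FF replicate 3. Uqcrc1 and Uqcrc2, the core proteins on the matrix side, had a median difference of 0.18 with 6 libraries and 0.17 without FF replicate 3. The 5 small subunits Uqcrb, Uqcrq, Uqcrh, Uqcr10 and Uqcr11 had medians of -0.39 and -0.59, and in all 5 every cKO value was below FF replicates 1 and 2, as for 27% of all genes tested. With coding length corrected the medians of these 5 were -0.15 and -0.26, and Uqcr10 was at 0.18 and 0.04. The redox subunits were Cyc1 (cytochrome c1), with differences of -0.12 and -0.05, and Uqcrfs1 (the Rieske iron-sulphur protein), with 0.19 and 0.0010. With coding length corrected the core proteins had medians of 0.15 and 0.14, the redox subunits 0.10 and 0.02, and cytochrome c -0.05 and -0.14. The class medians are descriptions and their difference was not tested.

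Uqcrc2 was at 268, 288 and 236 FPKM in cKO hearts and at 244, 199 and 173 FPKM in FF hearts. Only the lowest cKO value was below the highest FF value. The difference was 0.37 ± 0.17 (SE) with an adjusted p of 0.311 in limma, and 0.25 ± 0.14 with an adjusted p of 0.256 without FF replicate 3. It was the highest difference of the 48 in both comparisons. Uqcrc1 averaged 145 ± 11.3 FPKM in cKO and 147 ± 22.4 FPKM in FF hearts (SD, n = 3 each).

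Uqcrq encodes a small subunit next to cytochrome b. It was at 102, 81.5 and 67.8 FPKM in cKO hearts and at 149.6, 140.1 and 101 FPKM in FF hearts. The highest cKO value was close to FF replicate 3 and well under the other FF values. The difference was -0.63 ± 0.21 (SE) with an adjusted p of 0.207 in limma, and -0.80 ± 0.17 with an adjusted p of 0.0377 without FF replicate 3. Uqcr11, another small membrane subunit, was at 208, 156 and 136 FPKM in cKO hearts and at 272, 269 and 192 FPKM in FF hearts. Here cKO replicate 1 was above FF replicate 3, and the others were all below the FF values. The difference was -0.55 ± 0.22 with an adjusted p of 0.253, and -0.72 ± 0.18 with an adjusted p of 0.0534 without FF replicate 3. Uqcrb, a small subunit on the matrix side, was at 260.1, 222 and 229.7 FPKM in cKO hearts and at 372, 324 and 247 FPKM in FF hearts, and it fell without FF replicate 3 (-0.55 ± 0.12, adjusted p of 0.0409 in limma).

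Uqcrh, the hinge protein that helps cytochrome c to dock, showed how far FF replicate 3 decides a value. It was at 264, 178 and 177 FPKM in cKO hearts and at 307, 305 and 134 FPKM in FF hearts. FF replicate 3 was the lowest library and FF replicates 1 and 2 the highest. The difference was -0.20 ± 0.35 (SE) with 6 libraries and -0.59 ± 0.19 without that library, with adjusted p of 0.814 and 0.0900. Reads of Uqcrh may be shared with Gm12854, a processed pseudogene that overlaps it on the other strand and had a mean of 12.2 FPKM. Cycs, the carrier cytochrome c itself, averaged 124 ± 12.3 FPKM in cKO and 154 ± 31.1 FPKM in FF hearts (SD, n = 3 each), with a difference of -0.30 ± 0.18 and an adjusted p of 0.438. It was -0.44 ± 0.14 when FF replicate 3 was left out, with an adjusted p of 0.0878.

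**Figure D2:**
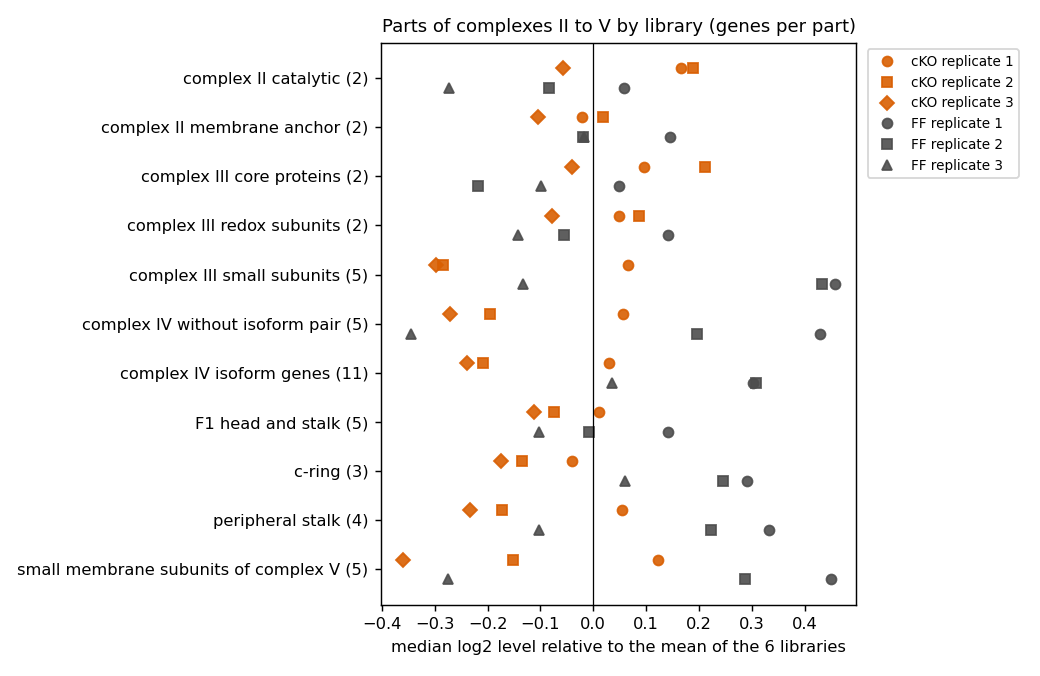
Median log2 level of each structural class of subunits in each library, relative to the mean of the 6 libraries; orange marks cKO and grey FF libraries, shapes mark replicates, and the number of genes stands behind each class. FF replicates 1 and 2 lie highest in the small subunits of complex III (0.46 and 0.43), where FF replicate 3 (-0.13) lies among the cKO libraries (0.07, -0.28 and -0.30).

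Complex IV held the gene with the lowest difference, Cox8b, and 4 of the 8 genes that fell without FF replicate 3. Its median difference was -0.22 with 6 libraries, -0.48 without FF replicate 3, and 0.051 with 6 libraries and coding length corrected. Cox8b encodes the muscle form of a small membrane subunit (ENSMUSG00000025488, chr7:140478858-140480359, 553 to 1369 reads per library). It was at 134, 113 and 70.8 FPKM in cKO hearts and at 212, 238 and 145 FPKM in FF hearts. Every cKO value was below every FF value. The difference was -0.92 ± 0.29 (SE) with an adjusted p of 0.18 in limma, and -1.12 ± 0.26 with an adjusted p of 0.0434 without FF replicate 3.

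Cox8a, the widespread form of the same subunit (ENSMUSG00000035885, chr19:7192518-7194981), was at 342, 334 and 346 FPKM in cKO hearts and at 315, 264 and 328 FPKM in FF hearts. The groups were separate in the opposite direction to Cox8b. The difference was 0.18 ± 0.13 with an adjusted p of 0.524, and 0.24 ± 0.12 with an adjusted p of 0.205 without FF replicate 3. Cox8b made up 28.2%, 25.3% and 17.0% of the summed FPKM of both genes in cKO hearts and 40.2%, 47.4% and 30.7% in FF hearts. The share was lower by 16.0 points in cKO, since the mean was 23.5 ± 5.82% there and 39.4 ± 8.40% in FF (SD, n = 3 each). The groups did not overlap, and the exact two-sided permutation p was 0.1, the smallest that 3 against 3 libraries allow. Without FF replicate 3 the difference was -20.4 points with an exact p of 0.2, again the smallest possible. The third form, Cox8c, known from testis, was at 0 in all libraries.

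The other subunits with a muscle form showed smaller differences in the same direction. Cox7a1, the muscle form of a subunit at the dimer interface, took 32.5%, 34.6% and 33.4% of the summed FPKM of Cox7a1 and Cox7a2 in cKO hearts and 37.2%, 35.2% and 39.6% in FF hearts. The groups did not overlap, the difference was -3.82 points, and the exact permutation p was 0.1. The Cox6a2 share of Cox6a1 and Cox6a2 was 67.0%, 70.7% and 71.3% in cKO hearts and 71.3%, 71.7% and 72.3% in FF hearts, a difference of -2.08 points with an exact p of 0.1. The highest cKO value (71.25%) lay just under the lowest FF value (71.26%). Without cKO replicate 1 the Cox6a2 difference was -0.77 points, and without FF replicate 3 it was -1.82 points with an exact p of 0.2. For the 3 shares compared the adjusted p was 0.1, and none could pass 0.05 at this number of libraries. Markers of another tissue in which Cox7a1 and Cox8b are known to be high were present in part. Of 9 listed brown fat markers 3 were tested, and Cidea, a lipid droplet protein, fell to 9.04, 8.71 and 10.9 FPKM in cKO hearts, against 23.1, 23.8 and 24.9 FPKM in FF hearts (-1.25, adjusted p of 0.0338 in limma, and -1.22 with 0.0116 without FF replicate 3). Fabp4, a fatty acid binding protein also found in endothelium, had a difference of -0.14 and fell without FF replicate 3 (-0.58, adjusted p of 0.0405), whereas Ppargc1a had 0.91 and 0.38 and passed in neither. The marker list summed to 108 to 134 FPKM in cKO and 80.4 to 171 FPKM in FF hearts. Ucp1, which defines brown fat, was at 0 to 0.0282 FPKM in cKO and 0 to 0.0358 FPKM in FF hearts, and Lep was at 0 throughout.

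**Figure D3:**
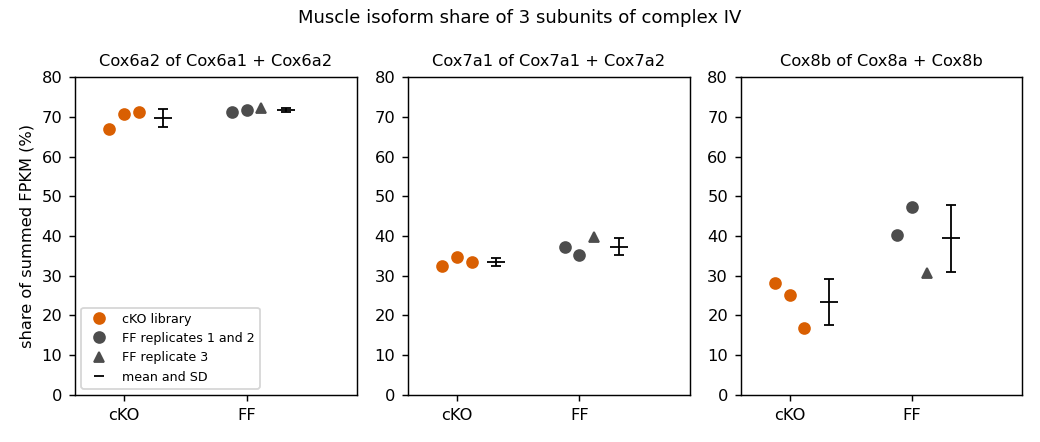
Share of the muscle form in the summed FPKM of each pair of isoform genes, in percent, for cKO libraries (orange) and FF libraries (grey, replicate 3 as a triangle), with mean and SD. Cox8b makes up 17.0% to 28.2% in cKO hearts and 30.7% to 47.4% in FF hearts, while the Cox6a2 and Cox7a1 shares differ by -2.08 and -3.82 points.

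The genes behind the smaller shares did not pass the test on their own. Cox7a1 was at 104, 81.5 and 75.7 FPKM in cKO hearts and at 130.4, 126 and 81.5 FPKM in FF hearts. FF replicate 3 lay among the cKO libraries. The difference was -0.35 ± 0.22 (SE), and -0.57 ± 0.15 without FF replicate 3, with adjusted p of 0.467 and 0.0544 in limma. Its widespread partner Cox7a2 was at 216, 154 and 151 FPKM in cKO hearts and at 219.8, 233 and 124 FPKM in FF hearts, with differences of -0.11 and -0.40. Cox7a2l, a related protein that links complexes III and IV in supercomplexes, was at 156, 140.2 and 137 FPKM in cKO hearts and at 164, 157 and 164 FPKM in FF hearts. The groups were separate by a small margin, and the difference was -0.16 ± 0.11 with an adjusted p of 0.514, and -0.15 ± 0.10 without FF replicate 3.

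Cox6a2, the muscle form, was the most abundant per length of the nuclear subunits of complex IV. It was at 572, 614 and 627 FPKM in cKO hearts and at 649, 529 and 764 FPKM in FF hearts. The cKO values lay within the range of the FF values. Cox6a1 was at 281, 255 and 253 FPKM in cKO hearts and at 262, 209 and 293 FPKM in FF hearts. The differences were -0.08 ± 0.16 for Cox6a2 and 0.06 ± 0.16 for Cox6a1, and without FF replicate 3 they were 0.04 and 0.17. Their 95% intervals with 6 libraries ran from -0.47 to 0.30 and from -0.32 to 0.43.

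Cox4i1 encodes the largest nuclear subunit of complex IV, a regulatory one (ENSMUSG00000031818, chr8:121394961-121400946). It was at 393, 340.0 and 304 FPKM in cKO hearts and at 561, 526 and 414 FPKM in FF hearts. Every cKO value was below every FF value. The difference was -0.53 ± 0.17 (SE) with an adjusted p of 0.186 in limma, and -0.66 ± 0.14 with an adjusted p of 0.0377 without FF replicate 3. Cox4i2, a form known from lung and from the response to low oxygen, was far less abundant. It was at 6.88, 5.33 and 4.38 FPKM in cKO hearts and at 8.70, 9.44 and 9.48 FPKM in FF hearts, on 75 to 143 reads per library. The groups were separate. Its difference of -0.66 ± 0.16 had the smallest p of the 48 (0.0051, adjusted 0.115), and it was -0.64 ± 0.17 with an adjusted p of 0.0548 without FF replicate 3. Because both genes were lower, the Cox4i2 share of the pair was alike, at 1.56 ± 0.150% in cKO and 1.84 ± 0.362% in FF hearts (SD, n = 3 each).

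Cox6b1 and Cox6b2 encode the subunit that faces the intermembrane space, the second being known from testis. Cox6b1 was at 500.0, 401 and 360.2 FPKM in cKO hearts and at 559, 496 and 330.5 FPKM in FF hearts, with overlapping groups and a difference of -0.11 ± 0.23 (SE), or -0.34 ± 0.17 without FF replicate 3. Cox6b2 was at 2.38, 2.42 and 3.16 FPKM in cKO hearts and at 5.18, 4.40 and 3.30 FPKM in FF hearts, on 52 to 98 reads per library. Its groups were separate, though cKO replicate 3 and FF replicate 3 were close. The difference was -0.53 ± 0.18 with an adjusted p of 0.198 in limma, and -0.67 ± 0.14 with an adjusted p of 0.0337 without FF replicate 3. Of 8 listed testis markers Cox6b2 alone was tested, and Tnp1, Ldhc and Prm2 were at 0 in all libraries.

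The 5 subunits without an isoform pair (Cox5a, Cox5b, Cox6c, Cox7b and Cox7c) had medians of -0.22 and, without FF replicate 3, -0.48. With coding length corrected these medians were 0.065 and -0.19. Cox5b, a zinc-binding subunit on the matrix side, was at 215, 199.6 and 187 FPKM in cKO hearts and at 295, 259 and 218 FPKM in FF hearts. Every cKO value was below every FF value, and it fell without FF replicate 3 at the edge of the threshold (-0.46 ± 0.11, adjusted p of 0.0499 in limma). With 6 libraries its difference was -0.35 ± 0.15 with an adjusted p of 0.287. The row Cox5b-ps, annotated as protein-coding in the table, had 62.3 ± 6.64 FPKM in cKO and 78.9 ± 17.0 FPKM in FF hearts (SD, n = 3 each), and both rows may share reads. Among these 5, Cox6c and Cox7b had the widest gap between FF replicate 3 and the mean of FF replicates 1 and 2, with -1.21 and -0.99 on the log2 scale. Cox7b2 had 0.085 FPKM in cKO replicate 3 and 0 in the other libraries.

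**Figure D4:**
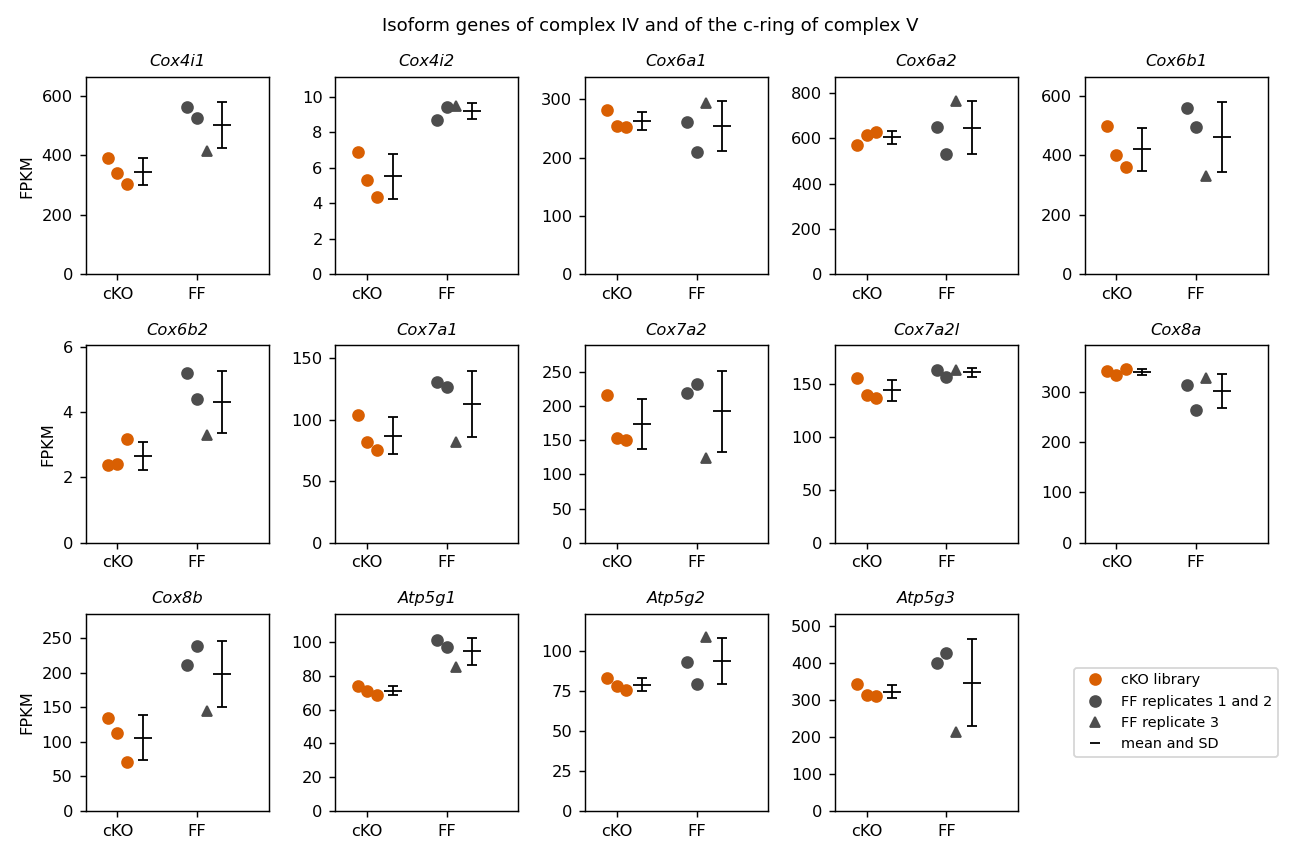
FPKM of each isoform gene of complex IV and of the c-ring of complex V in cKO libraries (orange) and FF libraries (grey, replicate 3 as a triangle), with mean and SD; each axis starts at 0. Cox8b, Cox4i1, Cox4i2, Cox6b2, Cox7a2l and Atp5g1 are lower in every cKO library than in every FF library, and Cox8a is higher.

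The median difference of complex V was -0.26 with 6 libraries, -0.36 without FF replicate 3, and -0.021 with 6 libraries and coding length corrected. Atp5b, the beta subunit that carries the catalytic sites, was at 1153, 1246 and 1069.8 FPKM in cKO hearts and at 1048, 944 and 998 FPKM in FF hearts. Every cKO value was above every FF value. The difference was 0.21 ± 0.12 (SE) with an adjusted p of 0.422 in limma, and 0.21 ± 0.15 with an adjusted p of 0.352 without FF replicate 3. Atp5a1, the alpha subunit, was 0.20 ± 0.13 higher in cKO with overlapping groups. The stalk subunits of the head were lower, with Atp5c1 (gamma) at 435 ± 38.5 FPKM in cKO and 532 ± 49.9 FPKM in FF, and Atp5d (delta) at 155 ± 1.60 and 178 ± 5.22 FPKM (SD, n = 3 each). Both had separate groups, with adjusted p of 0.331 and 0.390, and differences without FF replicate 3 of -0.23 and -0.20. Atp5e (epsilon) had -0.32 ± 0.25 with overlapping groups, and -0.58 ± 0.15 with an adjusted p of 0.0544 without FF replicate 3. The 5 subunits of the head and its stalk had a median of -0.20 in both comparisons, with 3 of 5 below 0. With coding length corrected the medians were 0.030 with 6 libraries and -0.017 without FF replicate 3.

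The membrane ring of c subunits turns as protons pass, and 3 genes encode the same mature protein. Atp5g1 was at 73.8, 71.0 and 68.4 FPKM in cKO hearts and at 101, 97.2 and 85.4 FPKM in FF hearts (ENSMUSG00000006057, chr11:95959678-95966496). Every cKO value was below every FF value. The difference was -0.40 ± 0.12 (SE) with an adjusted p of 0.167 in limma, and -0.47 ± 0.08 with an adjusted p of 0.0261 without FF replicate 3, the smallest of the 48 there. Atp5g2 was at 83.5, 78.1 and 75.9 FPKM in cKO hearts and at 93.2, 79.8 and 109 FPKM in FF hearts, with a difference of -0.23 ± 0.15, or -0.12 ± 0.10 without FF replicate 3, its highest library. Atp5g3, the most abundant of the 3 per length, was at 344, 313 and 311 FPKM in cKO hearts and at 400.2, 427 and 213 FPKM in FF hearts. FF replicate 3 was the lowest library and the other FF libraries the highest. Its differences were -0.04 ± 0.27, and -0.36 ± 0.11 without FF replicate 3, with adjusted p of 0.949 and 0.0794. The summed level of the 3 genes was 501, 462 and 455 FPKM in cKO hearts and 594, 604 and 407 FPKM in FF hearts.

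The peripheral stalk, which holds the head still, had a median of -0.27 over Atp5pb, Atp5h, Atp5j and Atp5o, and -0.44 without FF replicate 3. With coding length corrected these medians were -0.08 and -0.23. Atp5h, the d subunit, was at 267, 219 and 189.7 FPKM in cKO hearts and at 348, 322 and 249 FPKM in FF hearts. Only cKO replicate 1 was above FF replicate 3. The difference was -0.44 ± 0.19 (SE) with an adjusted p of 0.289, and -0.58 ± 0.16 with an adjusted p of 0.0620 without FF replicate 3. Atp5j, coupling factor 6, was at 100.1, 78.9 and 78.0 FPKM in cKO hearts and at 129, 120.2 and 69.5 FPKM in FF hearts. It fell without FF replicate 3, the lowest library, at the edge of the threshold (-0.54 ± 0.13, adjusted p of 0.0496 in limma), and its difference with 6 libraries was -0.27 ± 0.25. Gabpa overlaps Atp5j on the other strand with a mean of 14.4 FPKM, and no source used here says whether counting used strand. Atp5o, the subunit that confers oligomycin sensitivity, averaged 126 ± 5.44 FPKM in cKO and 153 ± 11.6 FPKM in FF hearts (SD, n = 3 each) with separate groups. A second row named Atp5o (ENSMUSG00000116933) overlaps the first on the same strand and was at 0 in all libraries.

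The 5 small membrane subunits of complex V, which help to hold its dimers together, had a median of -0.26 with 6 libraries. They are Atp5j2, Atp5k, Atp5l, Atp5md and Atp5mpl. Without FF replicate 3 the median was -0.54, with a range of -0.65 to -0.35, and in all 5 every cKO value was below FF replicates 1 and 2, as for 27% of all genes tested. With coding length corrected as well, their median was -0.18, and Atp5mpl and Atp5j2 were at 0.0015 and -0.0048. None of the 5 passed the test, and the smallest adjusted p there was 0.0586 for Atp5md (limma). Atp5md was at 60.1, 51.4 and 41.3 FPKM in cKO hearts and at 84.1, 72.4 and 54.9 FPKM in FF hearts.

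Coding length was compared with the difference over the 48 tested subunits, and the trend was not tested within single classes. Across the 48 genes the difference rose with coding length, with Spearman's rho of 0.46 for 6 libraries and 0.60 without FF replicate 3, a description over genes that share the same libraries. Across the other 11077 tested protein-coding genes rho was 0.31 and 0.27. Other coding genes of up to 300 bases (n = 203) had median differences of -0.29 and, without FF replicate 3, -0.36, and the 18 subunits of that length had -0.22 and -0.56. Between 300 and 600 bases the other 1234 genes had -0.20 and -0.21, and the 19 subunits -0.27 and -0.46. Without FF replicate 3, 88.7% of the other genes of up to 300 bases were below 0, beside 88.9% of the subunits. Between 300 and 600 bases it was 74.8% of the other genes and 94.7% of the subunits. Between 1200 and 2400 bases the other 4008 genes had 0.06 and 0.05, and the 5 subunits 0.21 and 0.19. FF replicate 3 minus the mean of FF replicates 1 and 2 also rose with coding length across the subunits (rho 0.55) but not across the other genes (-0.03). That gap rose with GC content in both sets, with rho of 0.40 across the subunits and 0.65 across the other genes.

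With the trend of coding length removed from each library, chosen after the data were seen, the median of the 48 was 0.010 with 6 libraries and -0.09 without FF replicate 3. In the second case 3 subunits fell and 2 rose. They were Cox4i1 (-0.48, adjusted p of 0.0228), Cox8b (-0.73, adjusted p of 0.0296) and Uqcrq (-0.44, adjusted p of 0.0327), all among the 8 above, and on the higher side Cox8a (0.64, adjusted p of 0.0083) and Cox6a1 (0.45, adjusted p of 0.0232), all by limma. That fit held 11125 protein-coding genes with a known coding length, of which 8.67% fell and 9.29% rose. The share of lower subunits (6.25%) was close to that of all these genes, and 4.17% of the subunits rose. Cox8b was below 0 and Cox8a above 0 with and without the correction. Cox8a passed the test only in this fit, and with all 6 libraries and the correction neither passed (adjusted p of 0.235 for Cox8b and 0.217 for Cox8a). With the trend of GC content removed in place of that of length, 17 subunits fell and 0 rose without FF replicate 3, all of the 8 among them, against 8.31% and 7.97% of all genes tested.

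**Figure D5:**
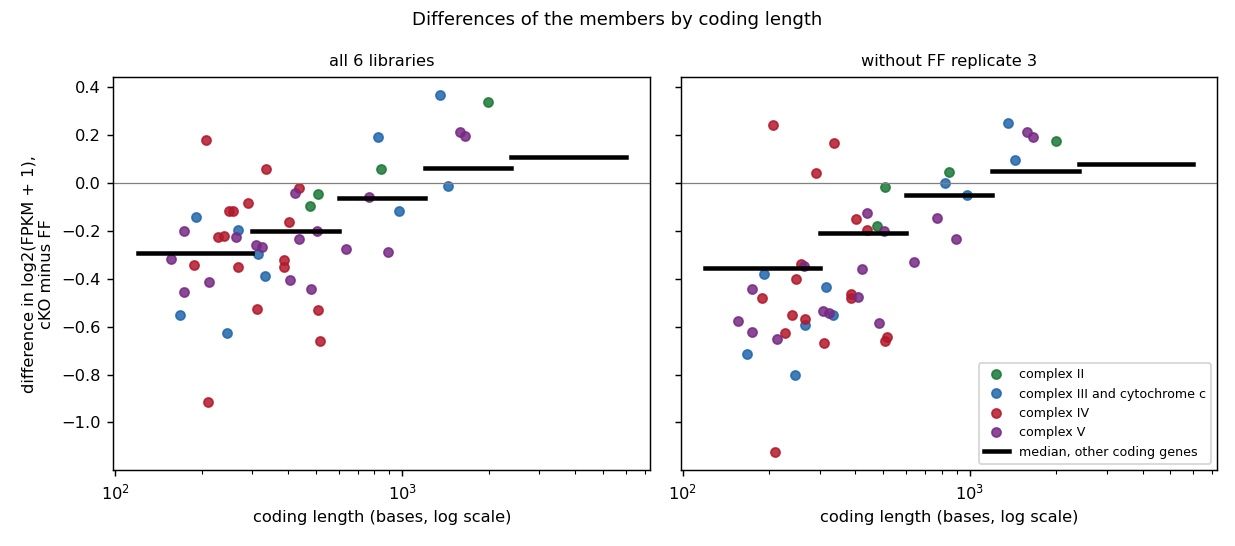
Difference in log2(FPKM + 1), cKO minus FF, of the 48 subunit genes against coding length in bases (log axis), with all 6 libraries (left) and without FF replicate 3 (right); black bars give the median of the other tested protein-coding genes in each length class. Subunit genes of up to 300 bases lie at medians of -0.22 and -0.56, beside -0.29 and -0.36 for other genes. Cox8a and Cox8b, of nearly equal length, lie on opposite sides of 0.

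The summed level of all subunit genes was 11469, 10854 and 9879.9 FPKM in cKO hearts and 12945, 11704 and 10225 FPKM in FF hearts, so the groups overlapped. Their share of all reads was 2.33 ± 0.104% in cKO and 2.27 ± 0.207% in FF hearts (SD, n = 3 each). In whole hearts, fewer cells of a type and less RNA per cell cannot be told apart.

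The subunits of complexes III to V that the mitochondrial genome encodes were lower in cKO hearts in all 6 cases, with a median difference of -1.04, and -1.43 without FF replicate 3. None passed the test with 6 libraries. The level of mt-Atp8, a small subunit of complex V, was 282, 167 and 64.6 FPKM in cKO hearts and 784, 692 and 422 FPKM in FF hearts. The groups were separate, with a difference of -2.07 ± 0.53 (SE) and an adjusted p of 0.13 in limma, and -2.34 ± 0.56 with an adjusted p of 0.0462 without FF replicate 3. The other gene to fall there was mt-Co2, a catalytic subunit of complex IV (-1.60 ± 0.36, adjusted p of 0.0412), named after its values were seen. By contrast mt-Co1, the subunit with the oxygen-reducing centre, differed by -0.59 ± 0.18 and by -0.43 ± 0.48 without that library. All reads of the mitochondrial genome made up 15.7%, 13.5% and 12.8% in cKO hearts and 19.0%, 18.0% and 19.0% in FF hearts.

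Assembly factors, which build the complexes and are no part of them, held no called gene with 6 libraries. Without FF replicate 3, 2 of 7 for complex III and 3 of 25 for complex IV fell, against 6.26% of all genes tested. For complex II 0 of 4 fell and for complex V 0 of 5, and none rose in any list. Of coding genes other than the subunits, 26.6% of those of up to 300 bases fell there. Between 300 and 600 bases it was 15.2%, and between 600 and 1200 bases 6.93%. Uqcc2, needed for the synthesis of cytochrome b, was at 26.3, 23.0 and 18.2 FPKM in cKO hearts and at 44.7, 40.6 and 34.6 FPKM in FF hearts. Its groups were separate, with a difference of -0.81 ± 0.17 (SE, adjusted p of 0.0933 in limma), and -0.91 ± 0.16 (adjusted p of 0.0240) without FF replicate 3. Cox14, which binds newly made mt-Co1 protein, was at 17.0, 15.8 and 13.9 FPKM in cKO hearts and at 26.1, 26.5 and 22.3 FPKM in FF hearts, also with separate groups. Its difference was -0.65 ± 0.13 (adjusted p of 0.0837), and -0.73 ± 0.10 (adjusted p of 0.0175) without FF replicate 3. Uqcc3, Higd1a and Cox11, a copper-binding factor, also fell without FF replicate 3, with -0.38, -0.68 and -0.52, and were named after their values were seen. The coding lengths were 171 bases for Cox14, 267 for Uqcc3, 297 for Higd1a, 408 for Uqcc2 and 825 for Cox11. The lists had median differences of -0.30 (complex II), -0.18 (III), -0.11 (IV) and -0.20 (V).

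Of 17 regulators of respiratory genes 0 were called with 6 libraries. Their median difference was 0.17 with 4 below 0, or 0.03 with 7 below 0 without FF replicate 3. Ppargc1b, a coactivator of mitochondrial genes, was at 7.74, 8.55 and 9.51 FPKM in cKO hearts and at 6.40, 5.80 and 5.70 FPKM in FF hearts. Every cKO value was above every FF value, with a difference of 0.46 ± 0.12 (SE) and an adjusted p of 0.137 in limma, or 0.43 ± 0.11 and 0.0546 without FF replicate 3. Its relative Ppargc1a was at 26.4, 24.1 and 20.6 FPKM in cKO hearts and at 18.2, 17.6 and 5.32 FPKM in FF hearts, with a difference of 0.91 ± 0.43 and an adjusted p of 0.333, or 0.38 ± 0.12 and 0.0812 without FF replicate 3. Nrf1, whose letters stand in promoters of 7 subunit genes, differed by 0.01 ± 0.12, and Gabpa by 0.44 ± 0.42, or by -0.08 ± 0.13 without FF replicate 3. In that comparison Mef2d, a muscle transcription factor, rose by 0.41 (adjusted p of 0.0430) and Chchd2, a mitochondrial protein that also acts in the nucleus, fell by 0.53 (adjusted p of 0.0399), both named after their values were seen. The 13 tested subunits with NRF1 or GABPA letters had a median difference of -0.26, and the 23 with neither had -0.20. The medians were -0.54 and -0.36 without FF replicate 3, with overlapping ranges of -0.72 to 0.18 and -1.12 to 0.24.

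Markers of other cell types differed between single libraries. Atrial markers summed to 1187, 563 and 1543 FPKM in cKO hearts and to 145, 609 and 1767 FPKM in FF hearts, and 0 of 6 were called with 6 libraries. Their median difference was 1.43 without FF replicate 3, and Nppa (2.17, adjusted p of 0.0473 in limma) and Tbx5 (0.96, adjusted p of 0.0471) rose. The skeletal muscle list had 4 of 14 genes tested and 0 called with 6 libraries. Acta1 (0.92, adjusted p of 0.0295) and Ckm (0.51, adjusted p of 0.0485), both also genes of heart muscle, rose without FF replicate 3, and the defining genes of skeletal muscle Myod1, Myh2 and Myh4 were at 0 in all libraries. Endothelial markers summed to 274 to 330.1 FPKM in cKO and 311 to 436 FPKM in FF hearts, and fibroblast markers to 476 to 607 FPKM and 590 to 856 FPKM, with 0 called in either list with 6 libraries. Smooth muscle (387 to 488 against 297 to 459.5 FPKM), macrophage (37.2 to 46.0 against 42.3 to 85.2 FPKM) and erythroid sums (891 to 1096 against 753 to 1554 FPKM) are given for cKO against FF. With FF replicate 3 left out, 2 smooth muscle markers (Acta2 and Cnn1), 2 erythroid (Hba-a2 and Alas2), 1 macrophage (Lyve1) and 1 fibroblast marker (Tcf21) rose, and 1 fibroblast (Dcn) and 1 endothelial marker (Egfl7) fell. These were named after their values were seen. The part of such cells in the levels of the subunits was not tested.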

How the data were processed

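Total RNA of 3 cKO and 3 FF hearts was sequenced, and the labels' protocols name a NuGEN Ovation kit for low input. Per the file headers, the authors gave FPKM with a gene length for each row. The tools listed in the submitters' processing notes, without their roles, are FastQC, TopHat2 2.0.13, featureCounts of Subread, and edgeR, and the builds listed are GRCm39, mm10 and GRCh38. Annotation release and strand setting were not given in the sources used here. None of the 51 rows, and 1472 of 52073 shared identifiers, had the start and end that GENCODE M21 gives on GRCm38 (mm10). Gene coordinates are therefore printed as deposited, which by the listed mouse builds leaves GRCm39. Of the 51 rows 21 are overlapped by another gene, and 12 pseudogene rows carry a related symbol, so reads may be shared or split.

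Multiplying FPKM by gene length returned whole reads within 0.1 for 100% of values up to 200 reads in each library. On log2(FPKM + 1) values, cKO was compared with FF by limma 3.58.1 (R 4.3.3) with a trended variance prior and group as the only term. A gene entered at a mean FPKM of 1 or more, which left 12678, p-values were adjusted by Benjamini-Hochberg over all of them, and the threshold was 0.05. Fold changes on that scale understate the change of low genes. Shares of isoform genes were compared by two-sided exact permutation tests (scipy 1.17.1). Coding length and GC content came from GENCODE M21 by gene identifier, and GC content was known for 98.4% of the genes tested. Promoters came from RefSeq on GRCm38.p6, and 37 of 51 genes matched.

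Values in every library were given for isoform genes of complex IV and the c-ring, for each complex the 2 genes with the smallest p and the one with the highest difference, and the genes past the threshold. Uqcrh, Cox5b-ps, Atp5md, Atp5e, Myh7, Myl2, Myl3 and Fabp4 were added after their values were seen, as were the structural classes. The members and lists were chosen with earlier results of these data known. The comparison was repeated with pseudocounts of 0.1 and 0.5, without the filter or with a minimum of 5 FPKM, after scaling by median ratios, by quantiles or to the reads outside the mitochondrial genome, with a robust prior, on protein-coding genes alone, by limma voom on recovered reads, after corrections for gene length, GC content and coding length, with the replicate number as a block, and with each library left out. The fits were tested on simulated libraries with known changes.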

Additional observations from a re-analysis of the deposited data

How the results depend on the processing

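The count of called subunits was 0 with 6 libraries and under every alternative that kept FF replicate 3. Without FF replicate 3 it was 8, and leaving out each library in turn gave 0 to 8. With FF replicate 3 left out it was 5 with the coding length correction and 17 with the GC correction, both chosen after seeing the data. With 6 libraries and the coding length correction, the median difference of all subunits was 0.010 and that of complex IV 0.051, on the other side of 0 from the main values of -0.22 and -0.22, and that of complex V was -0.021. The median of complex II, 0.01, was 0.15 with quantile normalization, 0.12 with the gene length correction, 0.13 with the coding length correction, and 0.11 with that correction and FF replicate 3 left out. Complex III with cytochrome c had -0.41 and complex IV -0.48 without FF replicate 3, and complex IV had -0.48 with the GC correction and that library left out. Leaving out each library in turn gave -0.39 to -0.10 for all subunits, -0.03 to 0.08 for complex II, -0.41 to -0.074 for complex III, -0.48 to -0.14 for complex IV and -0.36 to -0.18 for complex V. The isoform shares then ranged from -2.88 to -0.77 points (Cox6a), -4.90 to -2.68 (Cox7a) and -20.4 to -12.0 (Cox8). Quantile normalization gave a median of -0.09 for all subunits. The cause of these differences was not tested.

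Deviations of same-numbered libraries from their group means correlated at 0.38, -0.24 and 0.24. Over 3 libraries per group these values cannot decide whether the replicate numbers pair the libraries. The replicate block called 0 subunits, alone and with the GC correction, with a median of -0.22 in both fits. With 75 to 143 reads for Cox4i2 and 52 to 98 for Cox6b2, counting error adds to their spread.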
